A study of Macaca mulatta with 304 samples.

Results

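The genes described here encode 9 chemokine receptors of blood leukocytes, CXCR4, CXCR5, CXCR6, CXCR3, CCR1, CCR2, CCR6, CX3CR1 and ACKR3. They were taken by gene symbol from a count table of 21070 genes, and every one of the 9 symbols was found once. All 9 passed the filter on low values (3 or more counts in 80% or more of the libraries), which left 13751 genes for testing. The samples were 304 whole blood libraries from 28 rhesus macaques (Macaca mulatta) of 3 to 5 years whose thorax was irradiated once, with 9.8 Gy (LD, 6 females and 6 males) or 10.7 Gy (HD, 8 females and 8 males). No animal was left without irradiation, so the controls were the animals' own samples of Day -2, labelled 0 Gy, from 24 of the 28. Later draws were placed in an early window (Day 3 to 21, 28 animals, drawn on up to 5 days), a medium window (after Day 21 to Day 90, 95 samples of 28 animals) and a late window (after Day 90, 53 samples of 16 animals). The late window holds the animals still drawn by then, 12 LD and 4 HD, so time and the choice of animals cannot be told apart in it. Tachypneic animals received dexamethasone and tramadol was given during part of the early weeks, and which samples were drawn under either was not known here.

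Chemokines are small secreted proteins that direct the movement of leukocytes, and their receptors are membrane proteins that mostly couple to inhibitory G proteins. A leukocyte's set of receptors decides where it goes: CXCR4 and its ligand CXCL12 hold cells in the bone marrow, CXCR5 leads B cells into the follicles of lymph nodes, and CCR2 lets monocytes leave the marrow for inflamed tissue. ACKR3 is an atypical receptor that takes up CXCL12 and CXCL11 and does not signal through G proteins.

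The receptors share a short Asp-Arg-Tyr stretch at the cytoplasmic end of the third membrane helix, the place that contacts the G protein. It is shown for each gene because the family is known by it and because near-identical genes could have split reads between them. Each line starts at these 3 codons, in capitals, as read on the gene's own strand of Mmul_10.
CXCR4: GACCGCTACctggccatcgtc
CXCR5: GACCGTTACctggccattgtc
CXCR6: GATCGTTTCattgtagtggtt
CXCR3: GACCGCTACctgaacatagtg
CCR1: GACAGGTACctggccatcgtc
CCR2: GATAGATACctggcaatcgtc
CCR6: GACCGGTACatcgccatcgta
CX3CR1: GATAGGTACctggccatcgtc
ACKR3: GACCGCTACctctccatcacc
CXCR6 was the exception, with a Phe codon (TTC) in the third place where the other 8 had a Tyr codon (TAC). Across whole transcripts, 0% of the stretches of 50 bases of any of the 9 genes occurred in another annotated gene.

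In Mmul_10, CXCR4 lies at chr12:21291083-21294316 (- strand) and ACKR3 on the same chromosome at chr12:123965949-123980445 (+). CXCR6 (chr2:101948255-101953190, +), CCR1 (chr2:102205536-102212086, -) and CCR2 (chr2:102375497-102376579, +) stand near each other, and CX3CR1 lies on the same chromosome at chr2:94725701-94741488 (-). CXCR5 is at chr14:111946173-111958553 (+), CCR6 at chr4:3562138-3589217 (-) and CXCR3 at chrX:68624847-68625943 (-). The values are sums over annotated exons. Exons of CXCR5 overlap those of BCL9L on the other strand, and whether counting used strand was not given in the sources used here, so CXCR5 counts may hold BCL9L reads. BCL9L itself was lower in the late window (log2 fold change -0.74, adjusted p 0.0097).

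Before irradiation the receptors differed widely in level. Levels are in CPM, counts relative to the library total with upper quartile scaling. Per kilobase of exon, the median over the 24 controls was 225.5 CPM for CXCR4, 79.1 for CX3CR1, 36.9 for CXCR5, 23.4 for CCR2, 16.4 for CXCR3, 12.3 for CCR1, 8.63 for CXCR6, 5.89 for CCR6 and 0.995 for ACKR3. The ends of this order were clear, with CXCR4 above CX3CR1 and CCR6 above ACKR3 in 24 of 24 animals. Neighbours in the middle overlapped: CXCR5 was above CCR2 in 16 animals, CXCR3 above CCR1 in 17, CCR1 above CXCR6 in 16 and CXCR6 above CCR6 in 19. CX3CR1 was above CXCR5 in 20 animals and CCR2 above CXCR3 in 21. Animals differed least in CCR2 (SD of log2 CPM 0.27) and most in ACKR3 (0.90), CX3CR1 (0.71), CXCR5 (0.65) and CCR1 (0.63).

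ACKR3 was the scarcest receptor, with a median of 18 counts per library against 2176 for CX3CR1 and 1913 for CXCR4. It was at 0 counts in 6 libraries, 5 of them late, so its single values carry the most counting error. Library depth ran from 2840219 to 23638161 counts (median 8227563). The libraries are divided here into 3 series by the sample number at the end of a name in the description labels, which was from a lower run of numbers (A), from a higher run (B) or 0 (C). What these numbers stand for is not stated in the labels. The series were uneven over time, since 20 of 24 controls and most early samples were of series A, and all medium and late samples were of B or C. Series and time therefore cannot be told apart in most comparisons with the controls or, for most samples, between the early and medium windows. Late and medium samples were all of B or C, but series was not matched in their comparison (medium 19 of B and 76 of C, late 7 and 46). A separate fit used series C alone.

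**Figure D1:**
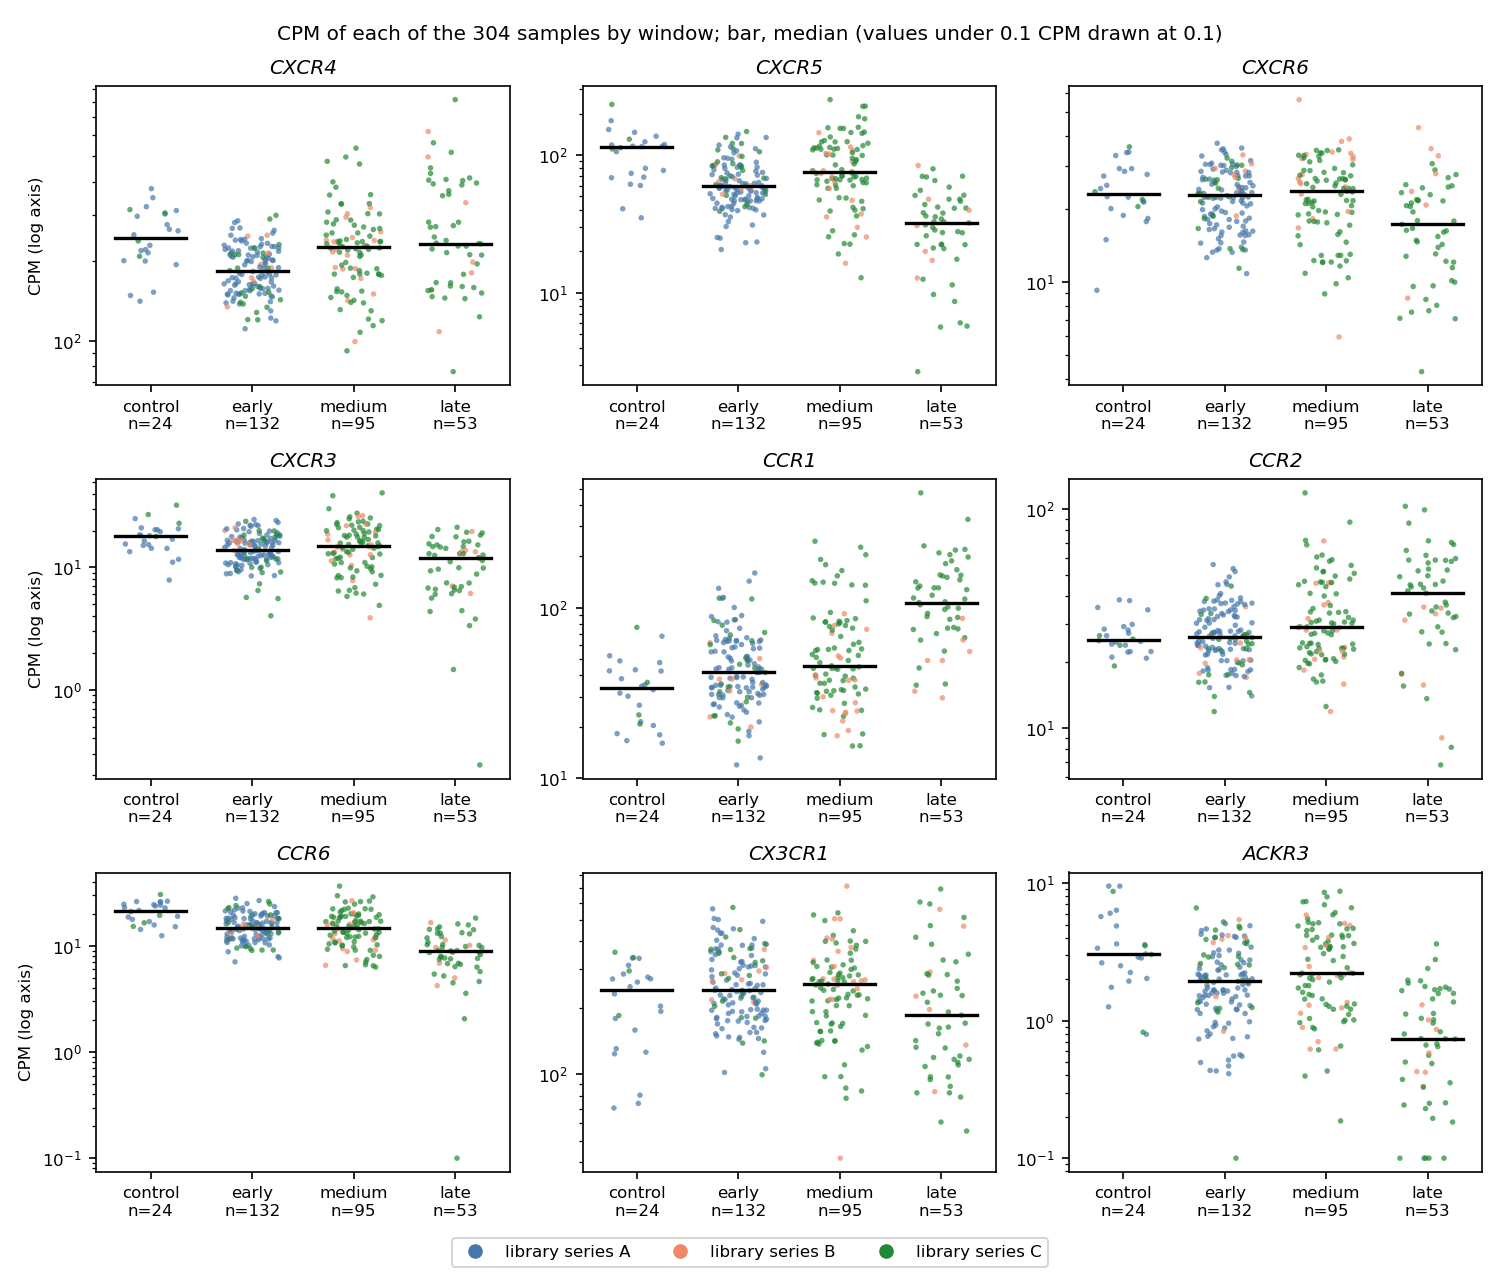
CPM of each of the 304 samples on a log axis, by window, with 1 panel per receptor; each point is a library coloured by library series and the bar is the median. CCR1 medians rise from 33.8 CPM in the controls to 107.1 in the late window, while CXCR5 falls from 114.1 to 32.1 and ACKR3 from 3.04 to 0.740; values under 0.1 CPM are drawn at 0.1.

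In the early window, 2 receptors fell by the call used throughout (adjusted p of at most 0.05 and at least 1.5-fold, edgeR quasi-likelihood test, each animal its own block, counts summed per animal and window) and 0 rose. Over all tested genes, 7.53% were called in this comparison and 1.75% were called lower. The early, medium and late comparisons share the same control samples, so their results are not independent of each other.

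CXCR5, the CXCL13 receptor of B cells and follicular helper T cells, ranged from 35.01 to 233.2 CPM (median 114.1) in the controls and from 20.6 to 148 (median 59.5) in the early samples. It fell by 0.66 on the log2 scale (SE 0.10, adjusted p 2.0e-06, n = 24) and was lower in 22 of 24 animals, although the ranges overlapped. ACKR3 went from 0.796 to 9.52 CPM (median 3.04) in the controls to between 0 and 6.61 (median 1.94). Its log2 fold change was -0.78 (SE 0.14, adjusted p 2.9e-05), also lower in 22 animals.

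Other receptors moved in most animals by less than the fold required, in a comparison where 49.1% of all genes passed the adjusted p at any fold. CCR6, the CCL20 receptor of B cells and Th17 cells, was lower in 24 of 24 animals, at a mean of 15.7 CPM after 21.8 in the controls (log2 fold change -0.47, SE 0.06, adjusted p 1.2e-07). CXCR4 was lower in 19 animals (-0.38, SE 0.07, adjusted p 0.00013). CXCR3, the receptor of Th1 and cytotoxic cells for CXCL9, CXCL10 and CXCL11, was lower in 18 (-0.31, SE 0.10, adjusted p 0.0096). A pair of receptors was on the other side. CCR1, which binds CCL3 and CCL5 on monocytes and neutrophils, was higher in 21 animals (0.52, SE 0.09, adjusted p 3.9e-05), and CX3CR1, the fractalkine receptor of patrolling monocytes and cytotoxic lymphocytes, in 20 (0.39, SE 0.10, adjusted p 0.0014). CXCR6 (-0.08, adjusted p 0.39) and CCR2 (0.02, adjusted p 0.79) did not pass.

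By single day, ACKR3, CCR6 and CX3CR1 were farthest from control within the early window on Day 3, and CXCR5 and CCR1 were at nearly the same values on Day 3 and Day 6. On Day 3, 5 receptors were called where 11.5% of all genes were: ACKR3 (-1.26, SE 0.13), CXCR5 (-0.85, SE 0.10) and CCR6 (-0.73, SE 0.07) fell, and CCR1 (0.75, SE 0.12) and CX3CR1 (0.70, SE 0.10) rose (n = 24, adjusted p at most 6.9e-06 for each). CX3CR1 on that day ran from 209 to 571 CPM with a median of 316, after 70.4 to 357 and a median of 240.5 in the controls. On Day 6, 3 were called (11.5% of all genes), ACKR3 (-1.12), CXCR5 (-0.85) and CCR1 (0.75). By Day 9 it was 2 (7.58% of all genes), CXCR5 (-0.74) and ACKR3 (-0.73). CXCR6, the CXCL16 receptor of effector T cells, was at -0.50 on Day 3 (SE 0.08, adjusted p 5.6e-06) and at 0.21 on Day 21 (SE 0.07, adjusted p 0.021), below the required fold on either day.

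From Day 15 to Day 30, 0 of the 9 receptors were called on any draw, against 6.01% of all genes on Day 15, 10.4% on Day 21 and 5.90% on Day 30. By the same test, adjusted p alone passed for 5, 5 and 2 of the 9 (40.7%, 52.2% and 26.01% of all genes), and DESeq2 called 0 of them too. On Day 30, ACKR3 was at 0.11 (SE 0.17) and CXCR5 at -0.08 (SE 0.10) against the controls, with 12 and 14 of 24 animals lower. CCR6 was still lower that day by 0.43 (SE 0.08, adjusted p 0.00038).

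**Figure D2:**
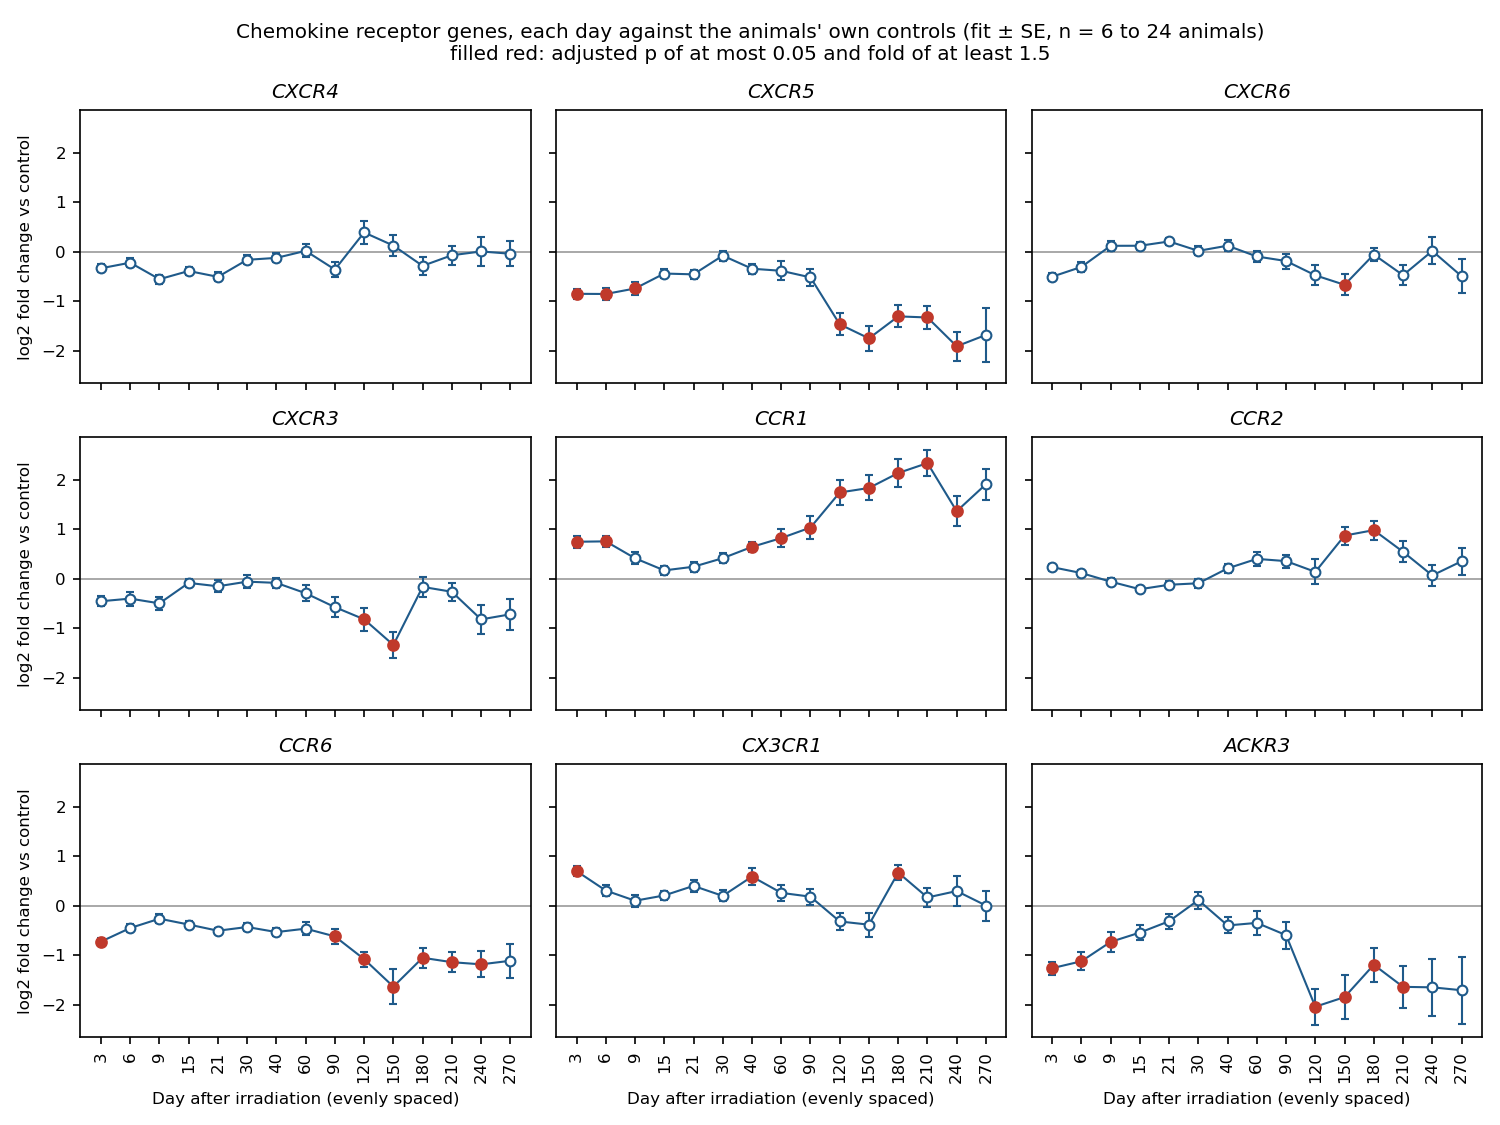
Log2 fold change against the animals' own controls on each of the 15 scheduled days (evenly spaced, n = 24 on the first days and 6 on the last), with 1 panel per receptor; points are the fitted values, lines their SE, and red points passed the call. CXCR5 and ACKR3 start at -0.85 and -1.26, come near 0 on Day 30 and lie at -1.47 and -2.04 on Day 120, and CCR1 climbs to 2.33 on Day 210.

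In the medium window CCR1 alone was called, upward, where 5.75% of all genes were called and 4.48% were called higher. It ran from 16.01 to 76.7 CPM (median 33.8) in the controls and from 15.4 to 246 (median 45.6) in the medium samples, so the control range lay inside the medium range, whose upper end was well above it. Within animals it rose in 23 of 24, by 0.83 on the log2 scale (SE 0.10, adjusted p 3.3e-07). CCR6 was again lower in 24 of 24 animals without reaching the fold (-0.52, SE 0.07, adjusted p 1.0e-06). CX3CR1 (0.36, adjusted p 0.0062), CCR2 (0.29, adjusted p 0.0020) and CXCR5 (-0.30, adjusted p 0.0045) passed the adjusted p only, as 45.3% of all genes did at any fold. ACKR3 (-0.31, adjusted p 0.11), CXCR3 (-0.14), CXCR4 (-0.08) and CXCR6 (-0.01) did not. In the 4 HD animals with a control of series C, with medium samples of that series alone, CCR1 had the same size (0.85, adjusted p 0.014), whereas CX3CR1 had the other sign (-0.22).

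Day by day, CCR1 was called on Day 40 (0.64, SE 0.10), Day 60 (0.82, SE 0.19) and Day 90 (1.03, SE 0.24). CX3CR1 was also called on Day 40 (0.59, SE 0.18, adjusted p 0.0082) and CCR6 on Day 90 (-0.62, SE 0.14, adjusted p 0.0059). The counts were 2, 1 and 2 of 9, against 6.92%, 4.23% and 7.06% of all genes.

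Between the early and the medium window, a comparison without control samples, 0 receptors were called (3.91% of all 13751 genes, 28 animals), and DESeq2 called 0 as well. At an unadjusted p of at most 0.05, 62.1% of all genes passed. CXCR5 (0.41, SE 0.09), ACKR3 (0.44, SE 0.10), CCR1 (0.34, SE 0.10), CXCR4 (0.27, SE 0.06), CCR2 (0.26, SE 0.07) and CXCR3 (0.16, SE 0.07) were higher in the medium window at an adjusted p of at most 0.045, which 57.4% of all genes passed at 0.05. ACKR3 was higher in 23 of 28 animals, and CXCR5 and CXCR4 in 22 each.

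In the late window 5 receptors were called against the controls (n = 14, 12 LD and 2 HD animals), 1 higher and 4 lower. The background was high as well, with 32.5% of all genes called, 13.96% higher and 18.5% lower, and the median of all genes at -0.13.

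CCR1 rose most. Late samples held between 29.6 and 472 CPM (median 107.1), after 16.01 to 76.7 in the controls. The mean per animal went from 33.02 (SD 14.3) to 130.1 (SD 74.8), a log2 fold change of 1.93 (SE 0.19, adjusted p 9.1e-07), and was higher in 14 of 14 animals, by between 0.16 and 3.10. CXCR5 fell from a mean of 101.2 to 33.95 CPM (-1.46, SE 0.20, adjusted p 1.8e-05), lower in 13 animals. The exception was B1504, the LD female with a single late draw, at 0.33.

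CCR6 fell from 20.6 to 9.86 CPM (-1.09, SE 0.11, adjusted p 1.4e-06) and was lower in 14 of 14 animals. ACKR3 fell from 3.39 to 0.888 CPM (-1.79, SE 0.27, adjusted p 4.3e-05), likewise in 14 of 14. CXCR3 fell from 17.4 to 10.6 CPM (-0.70, SE 0.22, adjusted p 0.011). This last call rested on LD animal B1005, whose change was -3.54: without it CXCR3 was at -0.56 and was not called.

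Among the receptors not called, CCR2 went from 26.8 to 40.5 CPM and was higher in 13 of 14 animals (0.56, SE 0.12, adjusted p 0.00075), just short of the fold. It passed with TMM scaling (0.65), DESeq2 (0.68), no filter (0.64), no replicate block (0.59) or a single draw per window (0.76), and without B1003, B1005 or B1504. CXCR6 was at -0.50 (SE 0.17, adjusted p 0.020). CXCR4 (0.26, SE 0.15, adjusted p 0.14) and CX3CR1 (-0.07, SE 0.19, adjusted p 0.78) did not pass, and the sign of CX3CR1 changed with the scaling of the libraries (0.03 with TMM).

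The late draws also varied by day. On Day 120, 5 were called (31.8% of all genes, n = 12): ACKR3 (-2.04, SE 0.36), CXCR5 (-1.47, SE 0.22), CCR6 (-1.08, SE 0.15), CXCR3 (-0.82, SE 0.24) and CCR1 (1.74, SE 0.26). Day 150 had 7 (31.5%, n = 9), with CXCR3 at its lowest (-1.34, SE 0.26), CXCR6 (-0.67, SE 0.21) called on this day alone and CCR2 (0.87, SE 0.18) higher in 8 of 9 animals. Day 180 had 6 (18.7%, n = 6), and CCR2 (0.98, SE 0.19) and CX3CR1 (0.67, SE 0.14) were higher there, CX3CR1 in 6 of 6 animals. CXCR3 was back at -0.17 (SE 0.21) on that day.

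On Day 210, 4 receptors were called (29.8%), with CCR1 at its highest, 2.33 (SE 0.27, adjusted p 0.00015). The 6 animals had 35.1 to 230.6 CPM of CCR1 that day, with a median of 201.6. On Day 240, 3 were called (6.76%), CXCR5 (-1.91, SE 0.30), CCR6 (-1.18, SE 0.26) and CCR1 (1.36, SE 0.30). On Day 270, the last draw, 0 of 9 were called by edgeR, as 1 gene was in all (0.00727%) and 29.5% of genes at an unadjusted p of at most 0.05. DESeq2 called 4 receptors there, CXCR5, CCR1, CCR6 and ACKR3, whose edgeR values were -1.68, 1.91, -1.11 and -1.71 (adjusted p 0.075 to 0.13, n = 6). The share of all genes that DESeq2 called on that day is not given here. These 4 calls therefore have no background beside them, and the 0.00727% is of edgeR alone. Of all combinations of the 9 receptors with the 15 days, 40 were called. The share of all genes called on a single day ran from 0.00727% on Day 270 to 31.8% on Day 120. The days share control samples and animals, so these 40 calls are not independent of each other.

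The comparison of late with medium samples needs no controls and shares none. It does share most of its late and medium libraries with the comparisons above, so it is not independent of them. Of the 9 receptors 8 were called among 16 animals, 2 higher and 6 lower, where 21.98% of all genes were called, 9.38% higher and 12.6% lower, and the median of all genes was -0.19. ACKR3 (-1.66, SE 0.18, adjusted p 2.7e-06) and CCR6 (-0.77, SE 0.10, adjusted p 1.3e-05) were lower in 16 of 16 animals. CXCR5 was lower in 15, from a mean of 89.9 to 32.7 CPM (-1.46, SE 0.20, adjusted p 1.7e-05). CCR1 was higher in 15 animals, from 53.5 to 125.4 CPM (1.20, SE 0.18, adjusted p 2.9e-05).

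CXCR4 rose here, from a mean of 199.3 (SD 37.2) to 324 (SD 153) CPM, in 15 of 16 animals (0.60, SE 0.14, adjusted p 0.0013). CXCR6 (-0.62, SE 0.12), CX3CR1 (-0.64, SE 0.15) and CXCR3 (-0.67, SE 0.22) fell in 15, 12 and 13 animals. These 4 calls were less firm than the rest. CXCR4 was not called in series C alone (0.55) or with a single draw per window (0.51), and CXCR3 not without the filter (-0.57). The calls of CXCR6 and CX3CR1 were lost with TMM scaling (-0.53 and -0.55), DESeq2 (-0.49 and -0.52), no filter (-0.51 and -0.53), no replicate block (-0.57 and -0.49) and in series C alone (-0.55 and -0.48).

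HD animal B2507 bore on them too. Its Day 120 library had the highest CXCR4 of the 53 late libraries, 817 CPM, and the lowest CXCR5 (2.67), CXCR3 (0.243), CX3CR1 (55.3) and CCR2 (6.80). In the same library the summed B cell markers stood at 70.6 CPM and the neutrophil precursor markers at 2185, against late medians of 330 and 332. What part this played in the receptor values was not tested. Without B2507, CXCR4, CXCR6, CXCR3 and CX3CR1 were no longer called, and the values nearest 0 on leaving out any 1 animal were 0.51, -0.56, -0.55 and -0.55. The call of CXCR4 was also lost without B1001, B1005 or B1503, and those of CXCR6 and CX3CR1 without B1006. CXCR5, CCR1, CCR6 and ACKR3 kept their calls whichever animal was left out.

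**Figure D3:**
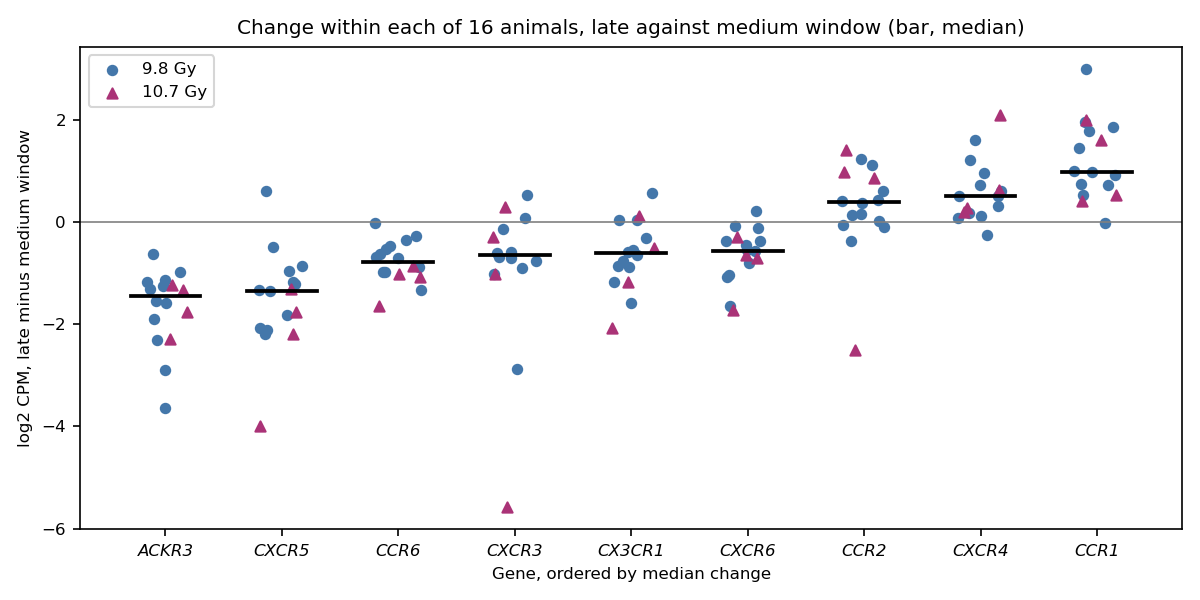
Log2 CPM of the late minus the medium window within each of 16 animals, with receptors ordered by median change; circles are 9.8 Gy and triangles 10.7 Gy animals, and the bar is the median. All 16 animals lie below 0 for ACKR3 and CCR6, 15 lie above 0 for CCR1 and for CXCR4, and B2507 is the triangle at -5.58 for CXCR3.

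In bulk blood, fewer cells of a type and less receptor RNA per cell cannot be told apart, so the markers of each cell type are given beside the receptors. Of all genes, 7.53% were called early, 5.75% in the medium window and 32.5% late (13.96% higher and 18.5% lower). B cell markers had 9 of 10 genes called lower early, 5 of 10 in the medium window and 10 of 10 late, with CD79B at -2.52 and CD22 at -2.19 late. Their summed level had a median of 1571 CPM in the controls (372 to 2763), 693 early (222 to 1893), 984 in the medium window (181 to 2813) and 330 late (68.4 to 1043). T cell markers had 0 of 9 tested genes called early and in the medium window and 6 lower late (CD5 -1.17, CD28 -1.11, LCK -0.92), with a median sum of 1595 CPM in the controls and 1071 late. Of 10 NK and cytotoxic markers, 1 was lower early, 0 were called in the medium window and 1 was lower late (GZMB -0.89), and the median sum went from 1338 to 1144 CPM.

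Monocyte markers had 4 of 9 tested genes higher in every window, with 1 lower late, and a median sum of 1670 CPM in the controls and 3225 late (CD163 1.62, LYZ 1.37, VCAN 1.13). Of 9 neutrophil markers, 0 were higher and 1 lower early, 1 was higher in the medium window and 7 late (S100A12 2.55, MMP25 1.33), with a median sum of 4328 CPM in the controls and 8315 late. Of 6 neutrophil precursor markers tested, 1 was higher early, 5 in the medium window (LCN2 1.22, MMP8 1.19) and 5 late (MMP8 3.28, LCN2 2.703, CAMP 1.64), and DEFA4 was at 0 in every late sample. Erythroid markers were higher in 10 of 10 early (HBA 2.66, HBB 2.52) and 7 of 10 in the medium window, and late 1 was higher and 1 lower. Platelet markers were higher in 5 of 8 early, 0 in the medium window and 8 of 8 late (PPBP 1.12). Of 10 plasma cell markers, 1 was higher and 1 lower early, 0 were called in the medium window and 5 were lower late. Of 6 eosinophil and basophil markers tested, 2 were higher early, 2 higher and 1 lower in the medium window, and 1 higher and 2 lower late. The late median log2 fold change was -1.98 over B cell, -0.77 over T cell, 0.58 over monocyte, 0.94 over neutrophil and 1.40 over neutrophil precursor markers, beside -0.13 over all genes. None of the lists of B cell, T cell, monocyte or neutrophil markers had a gene at 0 in every sample of a window. The part that these shifts in cell makeup played in the receptor values was not tested.

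Set beside these markers within each animal, the receptors did not all follow their cell type by the same amount. The values here are the receptor's log2 change minus the median log2 change of the marker list, with no test. CXCR5 fell less than the B cell markers did, by a median difference of 0.29 early (24 of 24 animals above 0) and 0.64 late (11 of 14). CCR6 also fell less than those markers early, by 0.50 (23 of 24), and late, by 0.95 (13 of 14). In the medium window CCR6 was level with them (0.03, 15 of 24 above 0). ACKR3 minus these markers was 0.29 early (18 of 24 above 0), 0.29 in the medium window (17 of 24) and 0.09 late (7 of 14, -1.33 to 1.51). Minus the eosinophil and basophil markers it was -1.79 late (12 of 14 animals below 0), but that list moved both ways, with IL5RA at 1.28 and CPA3 and MS4A2, genes of basophils and mast cells, at -2.21 and -1.87.

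CCR1 stood above the monocyte markers by a median of 1.36 late in 14 of 14 animals (0.57 to 2.39). The difference was -0.09 early, where 10 of 24 were above, and 0.40 in the medium window (19 of 24). CCR1 stood above the neutrophil markers by 0.72 early (21 of 24), 0.71 in the medium window (22 of 24) and 1.24 late (12 of 14). The monocyte list moved both ways late, with 4 of 9 genes called higher and 1 lower, so these differences are from its median only. Single monocyte markers came nearer to CCR1 (1.93), as CD163 at 1.62 and LYZ at 1.37. The differences from the neutrophil list are likewise from its median. Of its genes, S100A12 (2.55) rose more than CCR1 late, and MMP25 (1.33) and CXCR1 (1.09) rose less. CCR2 was below the monocyte markers early (-0.61, 23 of 24 animals) and level with them late (0.02, 7 of 14). CX3CR1 was above the NK and cytotoxic markers by 0.43 early (23 of 24), 0.43 in the medium window (22 of 24) and 0.26 late (8 of 14). Minus the monocyte markers it was -0.26 early (17 of 24 below 0), -0.18 in the medium window (14 of 24) and -0.74 late (11 of 14). CXCR4 was above the B cell markers late by 2.26 in 14 of 14 animals, above the T cell markers by 0.60 in 12, and below the neutrophil markers by 0.64 in 11. CXCR3 was below the T cell markers early (-0.30, 20 of 24) and near them late (-0.05, 8 of 14 below).

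**Figure D4:**
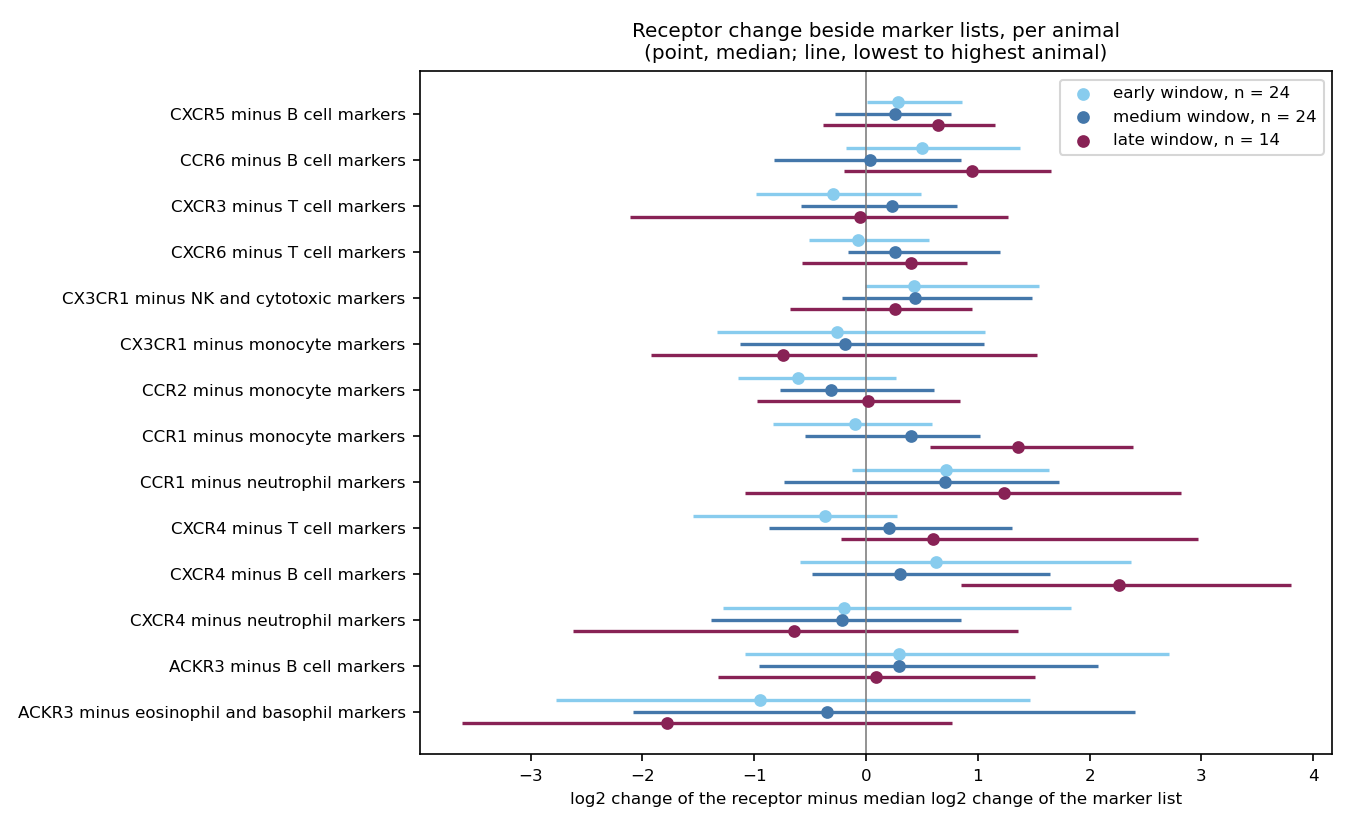
Log2 change of a receptor minus the median log2 change of a marker list, per animal, for the early and medium (n = 24) and late (n = 14) windows; points are medians and lines run from the lowest to the highest animal. The late lines of CCR1 against monocyte markers (0.57 to 2.39) and of CXCR4 against B cell markers (0.84 to 3.80) lie wholly above 0.

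The doses were compared over days that both groups had, as the difference of the change from control. Over Day 3 to 21, 0 of 9 receptors and 0 genes in all (0%) were called, with edgeR and with DESeq2, and 761 genes (5.53%) passed an unadjusted p of at most 0.05 with edgeR. The change of CCR1 in these days had a mean of 0.50 (SD 0.57) in 12 LD and 0.54 (SD 0.40) in 12 HD animals, a difference of 0.04 (SE 0.19).

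Over Day 30 to 60, CCR1 was the receptor called, where 3.93% of all genes were called and 3.37% were higher in HD. Among LD animals its log2 change ran from -0.18 to 1.04 (median 0.22, 8 of 12 higher), and among HD animals from 0.43 to 1.497 (median 0.99, 12 of 12 higher). The groups overlapped, and the difference was 0.68 (SE 0.16, adjusted p 0.0071). On Day 60 itself LD samples held 21.6 to 83.3 CPM (median 32.9, n = 12) and HD samples 29.4 to 226.4 (median 114.9, n = 12). These HD samples are not of the same animals as the tested difference. They include B2006, B2506 and B2507, which have no control and were not tested. B2005, B2007 and B2503 were in the test but had no Day 60 draw. On Day 120 the levels overlapped, with 32.3 to 330.0 CPM (median 87.7) in 11 LD and 74.4 to 142 (median 112.4) in 3 HD samples.

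The library series were not even between the doses, since all 12 LD and 8 HD controls were of series A and 4 HD controls of series C. Without those 4 animals the CCR1 difference was 0.76 (adjusted p 0.012), and with series C draws alone of the rest it was 0.76 (adjusted p 0.020). Leaving out each animal in turn gave 0.63 to 0.74, and the call held each time. The other receptors were not called. CXCR4 and CCR2 had the next largest values on the HD side (each 0.38, adjusted p 0.082 and 0.089), and ACKR3 (-0.50), CX3CR1 (-0.42) and CXCR5 (-0.36) those on the LD side.

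**Figure D5:**
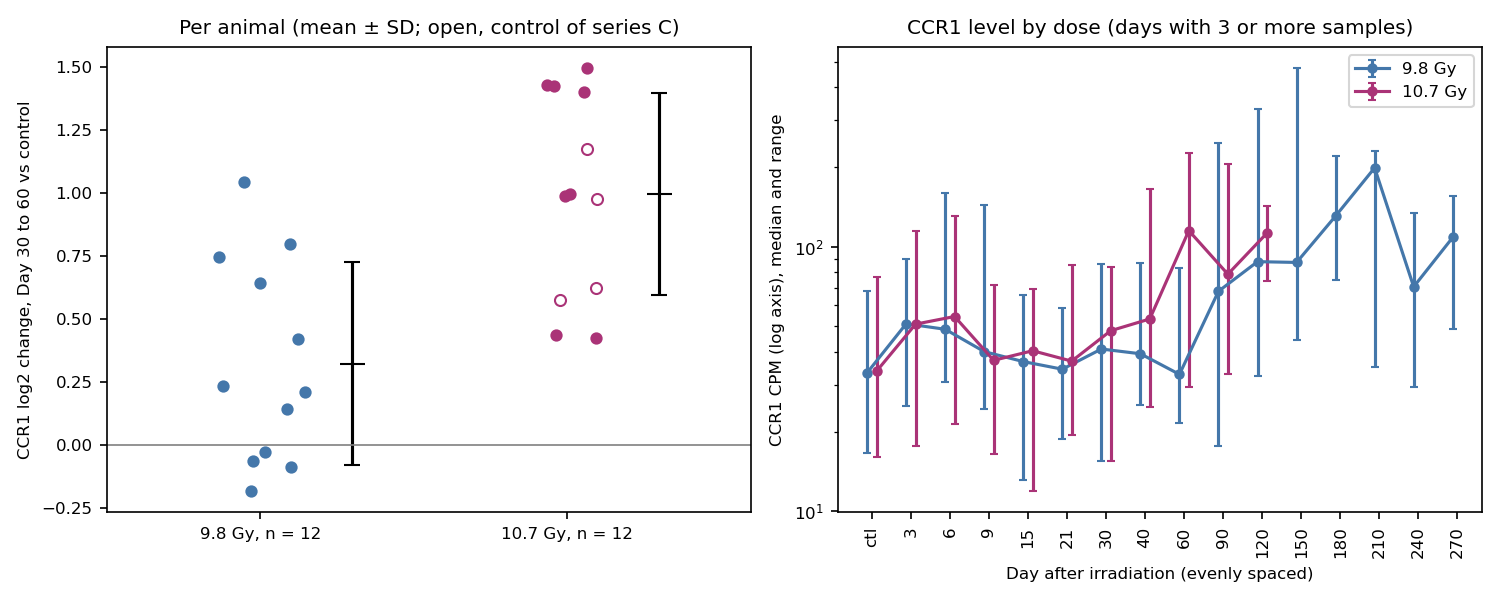
CCR1 by dose: on the left, the log2 change from control over Day 30 to 60 of each animal (12 per dose, mean ± SD, open circles for the 4 animals with a control of series C), and on the right, the CPM by day on a log axis (median, with lines from the lowest to the highest sample, for days with at least 3 samples). The HD animals lie between 0.43 and 1.497 and the LD animals between -0.18 and 1.04, and on Day 60 the medians are 114.9 and 32.9 CPM. The right panel holds all samples, also those of HD animals without a control, which are not in the left panel.

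In the comparison of the sexes, 0 genes (0%) were called for the change over Day 3 to 21 by edgeR and by DESeq2, and 0.894% of genes passed an unadjusted p of at most 0.05 with edgeR. Before irradiation, 9 genes (0.0654%) were called between females and males and none was a chemokine receptor of this set. CX3CR1 had the largest value of the 9, with a mean of 191 CPM (SD 89.2) in 12 females and 282 (SD 81.6) in 12 males (-0.56, SE 0.23, adjusted p 1.00, unadjusted p 0.024).

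Other genes of the chemokine system were called as well. Of 13 tested receptors outside the 9, 3 were higher early (7.53% of all genes were called): ACKR1 (1.59), the Duffy antigen carried by red cells, ACKR2 (1.14) and CMKLR1 (0.77), with 0 lower. In the medium window 2 were called (5.75% of all genes), ACKR1 (0.81) and CCRL2 (0.64), both higher. Late, where 32.5% of all genes were called, 4 were higher and 4 lower (4 and 2 with TMM), led by CCR7 (-1.36), which guides naive lymphocytes to lymph nodes, CCRL2 (1.30) and the neutrophil receptor CXCR1 (1.09). Against the medium window, CXCR1 (1.44) and CXCR2 (1.11) were higher late. CCR8 and XCR1 did not pass the filter. CXCR1 and CXCR2 are also on the list of neutrophil markers.

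Few ligands passed the filter on low counts. Of 23 listed ligands 5 were tested, and those of CXCR4 (CXCL12), CXCR5 (CXCL13), CCR2 (CCL2), CCR6 (CCL20) and CX3CR1 (CX3CL1) did not pass the filter, which says nothing of their level in tissue. CXCL16, the ligand of CXCR6, was higher early (0.84, SE 0.07, 24 of 24 animals) and in the medium window (0.79, SE 0.09). CCL3, a ligand of CCR1, was lower late (-0.60, SE 0.22, adjusted p 0.028), a call lost with TMM scaling, while CXCL8 (1.43) and PPBP (1.12), ligands of CXCR1 and CXCR2, were higher. PPBP is also on the list of platelet markers, and it was called higher early too (0.85, 23 of 24 animals). Of 28 genes of receptor signal transduction 1 was higher early, RGS18 (0.84), a regulator that shortens G protein signals. Late, 5 were higher and 3 lower, a share of the 28 below that of all genes (32.5%), led by RGS18 (1.28), JAK2 (1.16) and RHOH (-1.06).

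Over the 16 scheduled times, the receptors fell into a few courses. The following correlations of mean log2 CPM are descriptions over 16 means that share animals and libraries. CXCR5 and ACKR3 had nearly the same course (Pearson r 0.98), and CCR6 was close to either (0.88 and 0.85). CCR1 ran opposite to CXCR5 (-0.83), ACKR3 (-0.86) and CCR6 (-0.81) and with CCR2 (0.79). CXCR4 followed none of the others by more than 0.19 and was most opposed to CX3CR1 (-0.66).

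Outside the set, the genes most like CXCR5 were LOC693992 (0.99), BCL11A (0.99) and PAX5 (0.99), the last a B cell transcription factor, and those most like ACKR3 were FCHSD2 (0.98), LOC693992 (0.97) and SETBP1 (0.97). The course of CCR1 was nearest to IL1RN (0.98), which encodes the interleukin-1 receptor antagonist, AGTRAP (0.98) and CEACAM3 (0.98). CXCR4 was nearest to LOC719250, RCSD1 and TSC22D3 (each 0.90), the last a gene that glucocorticoids induce, CCR2 to AHR (0.94), ADGRB3 (0.92) and PRRG1 (0.92), and CX3CR1 to TIFAB (0.94), DCANP1 (0.90) and SAMD10 (0.90). CXCR6 was nearest to KLF12 (0.94), ZFP90 (0.93) and RRAS2 (0.93), CXCR3 to DEXI (0.98), ARVCF (0.95) and RALGDS (0.94), and CCR6 to LMO7 (0.96), UST (0.96) and RSAD1 (0.96).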

How the data were processed

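Whole blood RNA of 28 macaques was sequenced from stranded, ribosomal RNA-depleted libraries. Per the labels and the study's methods, the authors trimmed reads with cutadapt 2.10, aligned them to Mmul_10 with STAR 2.7.6a and counted them per gene with Subread 2.0.1. They deposited raw counts, which were used here, and upper quartile scaled log2 values, used as an alternative. Groups came from the sample labels. Counts were summed per animal and window or day and fitted in R 4.3.3 with edgeR 4.0.16 (quasi-likelihood test, upper quartile scaling, animal as block) over the 13751 genes that had 3 or more counts in 80% or more of the libraries, with Benjamini-Hochberg adjustment. Samples of 1 animal deviated together (median correlation of deviations 0.60, 0.46 and 0.28 for the early, medium and late window), and pairing is by animal. Levels are CPM scaled over all 304 libraries, and means beside a fold change are scaled within that comparison. Log2 values used a prior count of 2. The 9 receptors, the gene lists and the rule for named genes (up to 3 called genes of each list with the largest changes, and the 3 genes with the most similar course) were chosen with earlier results of these data known. On simulated data with 200 genes changed 2-fold among 13751, edgeR recovered 199 for the early, 175 for the late and 158 for the Day 180 comparison. It called 0, 4 and 4 other genes. The simulation used the fitted dispersions and the same fold in every animal. Far more genes were called in the late data (32.5%), so recovery there may differ. Alternatives were TMM scaling, DESeq2 1.42.0, no filter, no block, the same library series, a single draw, limma 3.58.1 on the deposited log2 values and leaving out animals; those added after seeing the data were scheduled draws only, 9.8 Gy animals only and the extra fits of the dose difference. Sequences and coordinates are from the Mmul_10 genome and annotation. Depth limits ACKR3 most, and counting error is the only error a limit at 0 counts covers.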

Additional observations from a re-analysis of the deposited data

Results flagged for a closer look

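A single sample stood apart from its group in 5 of 54 combinations of receptor and group of 4 to 10 samples (LD or HD, day), and chance gives about 1 in 20. CCR6 was at 0 CPM in B1502 (LD, Day 150), where the other 7 LD samples held 2.06 to 14.3, and this was the shallowest library of all (2840219 counts), in which 3 counts are 1.21 CPM. The same animal had the lowest CXCR3 on Day 210, 7.47 CPM against 15.3 to 19.1 in the other 4. CXCR3 was 3.78 CPM in B1503 (LD, Day 240), with the others at 11.9 to 13.4, and this library had 1537 CPM of neutrophil precursor markers. CCR6 was 6.30 CPM in B1004 (LD, Day 240), with the others at 9.62 to 11.4. CCR1 was 35.1 CPM in B1505 (LD, Day 210), with the others at 167 to 230.6, and its monocyte markers summed to 1665 CPM against a late median of 3225.

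The change of CCR1 over Day 30 to 60 differed between the doses by 0.68 (HD minus LD, log2) in the interaction test of edgeR, higher in 12 of 12 HD and 8 of 12 LD animals.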

How the results depend on the processing

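The counts of called genes stayed within 1.5 times the main count except for medium against early samples (538), which gave 919 without the filter and 1418 with a single draw per window, and for receptor-day combinations (40), of which 12 were called within 1 library series; that fit was possible on 8 days only, on which the main fit called 13. Leaving out each animal gave 974 to 1081 genes early, 671 to 865 medium, 4083 to 4965 late, 497 to 606 medium against early, 2563 to 3463 late against medium and 451 to 748 for the dose difference. The fit with no replicate block called 984, 788, 4288, 483 and 2643 genes in the 5 window comparisons and 37 combinations of receptor and day. No fit within 1 series was possible for the late window against control.

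Signs turned only for receptors that were not called. Against control, CCR2 early was -0.019 (limma), -0.060 (single draw) and -0.0091 to 0.036 on leaving out an animal, CXCR6 early 0.12 (single draw), CXCR6 medium 0.022 (TMM), 0.028 (DESeq2), 0.00058 (no filter) and -0.046 to 0.019 (leaving out an animal), CXCR4 medium 0.094 (same series) and 0.012 (single draw), CX3CR1 medium -0.22 (same series), and CX3CR1 late 0.026 (TMM), 0.052 (DESeq2), 0.020 (no filter), 0.10 (single draw) and -0.16 to 0.020 (leaving out an animal). For medium against early, CXCR6 was -0.033 (series C), -0.011 (limma) and -0.25 (single draw) and CX3CR1 -0.092 (series C) and -0.030 (limma), and the dose difference of CXCR3 was 0.11 (series C draws). The causes were not tested.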

Other observations

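Outside the schedule, 8 animals had a single further draw (Days 71, 77, 94, 102, 127, 129, 160 and 172), each of library series C and compared here with the animal's previous draw, with no test. The receptors moved in either direction in these draws: CXCR4, CCR1, CCR6 and CX3CR1 were higher in 4 of 8, CXCR3 in 5, CXCR5, CCR2 and ACKR3 in 3, and CXCR6 in 2. The widest rises of CX3CR1 and CCR6 and the widest fall of CXCR4 were in B1506 (LD female, Day 172 after Day 150), where CX3CR1 went from 78.9 to 281 CPM, CCR6 from 2.06 to 7.47 and CXCR5 from 11.4 to 31.1, while CXCR4 went from 430 to 152. In B1001 (LD male, Day 127 after Day 120) CXCR5 went from 58.5 to 21.1 CPM and CCR1 from 130.8 to 64.5, and CXCR4 from 405 to 516.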
